A study of Homo sapiens with 4 samples.

Results

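Genes of MHC class I antigen presentation were examined in HK-2 cells, an immortalised human line from the renal proximal tubule, in which doxycycline switches on the PRCC-TFE3 fusion. The 9 genes were chosen by name and not by a rule on measured values, but with earlier results of these data known. They are the heavy chain genes HLA-B, HLA-C and HLA-E, the light chain gene B2M, the peptide transporter genes TAP1 and TAP2, the tapasin gene TAPBP, and the immunoproteasome genes PSMB8 and PSMB9. All 9 had transcript identifiers among the 34080 genes that the deposited tables could be assigned to, and 6 of the 9 passed the filter on low counts that left 13569 genes for testing.

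Both groups carried the same Tet-On construct for HA-tagged PRCC-TFE3. Doxy(-) cells were kept for 24 h without doxycycline and Doxy(+) cells for 24 h with 0.2 microg/ml of it, and each group had 2 libraries of polyadenylated RNA, numbered 1 and 2. Nothing in the labels says that libraries of a group came from separate cultures, so the p-values below measure the spread between these libraries, which may be technical. No HK-2 culture without the transgene was analysed here, so the effect of doxycycline and that of PRCC-TFE3 cannot be told apart.

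Class I molecules hold peptides cut from proteins of the cell's interior and show them at the surface to CD8 T cells. A heavy chain pairs with beta-2 microglobulin, the product of B2M. Proteasomes cut the peptides, TAP1 and TAP2 form the pump that carries them into the endoplasmic reticulum, and tapasin holds an empty class I molecule beside that pump until a peptide fits. Interferons raise the transcription of most of these genes through factors such as STAT2 and IRF1, and NLRC5 acts as a co-activator at class I promoters.

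The 4 libraries held between 14042545 and 16618401 estimated reads, of which 9.66% to 9.89% lay on transcript identifiers outside the annotation used. TFE3, the transcription factor part of the fusion, stood at 66.9 and 69.1 CPM (reads scaled per library total) in Doxy(-) against 367 and 322 CPM in Doxy(+). The log2 fold change of Doxy(+) over Doxy(-), written log2FC, was 2.44 in GPNMB and 1.90 in RRAGD, which respond to TFE3, and 0.15 in PRCC (edgeR adjusted p 0.413). Summed over 18 markers of immune, blood and endothelial cells, the level was 5.98 to 9.09 CPM per library, with 8 to 11 of the 18 at 0, among them CD3E and MS4A1 in all 4 libraries. The renal epithelial factor PAX8 stood between 565 and 605 CPM, while the mature proximal tubule genes LRP2, SLC22A6, AQP1 and HNF4A were at or below 0.0777 CPM. Others of the same list stood higher. GGT1 lay between 68.7 and 86.0 CPM, SLC34A1 between 0.23 and 1.32 CPM and CUBN between 0.41 and 0.85 CPM, and ANPEP reached 0.233 CPM. Of 12 tested genes listed as proximal tubule and epithelial markers, 1 was higher in Doxy(+) (GGT1) and 6 were lower (CDH2, CDH6, KRT8, KRT18, KRT19 and VIM). VIM is not particular to epithelial cells, so its decrease is not read as a loss of an epithelial marker. The part of these marker changes in the results below was not tested.

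Among the 9 genes, 1 rose in Doxy(+) cells and 1 fell. B2M rose 1.24-fold and TAPBP fell 1.58-fold, while HLA-B, TAP1, PSMB8 and PSMB9 did not pass the test (edgeR's quasi-likelihood test, Benjamini-Hochberg adjusted p under 0.05 over all genes) and HLA-C, HLA-E and TAP2 had too few reads to be tested. Over all genes tested, 9.76% were higher and 9.53% were lower by the same rule. The 6 tested genes are too few to set their shares against these figures. Past a log2FC of 1 in size as well, the second limit the study used, there were 0 of the 6, also with DESeq2 and with limma, against 1.98% of all genes. At an unadjusted p under 0.05 the genes past edgeR's test were the same pair, while in both limma fits 2 of 7 were higher and 1 was lower. The median log2FC of the 6 genes was 0.15, beside 0.00 over all genes tested. It was 0.01 in both limma fits and 0.04 with copies added, where TAP2 was tested too and made 7 genes. In bulk RNA, a change in the share of cells that express a gene and a change in RNA per cell cannot be told apart.

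Before these levels are read, the place of the reads matters, because 8 of the 9 genes lie in the MHC region of chromosome 6. That region exists in several reference versions, called alternate haplotypes, and the deposited tables list many transcript identifiers that the annotation of the main assembly does not hold. Identifiers outside the annotation whose length and 4 counts equal those of a gene's transcript are called copies here. TAP1 had 5 copies, TAP2 had 6, TAPBP had 3, PSMB8 had 12 and PSMB9 had 8. These copies held 82.8%, 80.2%, 49.4%, 83.6% and 78.3% of the reads of gene and copies together. Of the gene's own reads, the canonical coding transcript took 96.5% in TAP1, 86.9% in TAPBP, 96.0% in PSMB8 and 83.4% in PSMB9. HLA-B, HLA-C, HLA-E and B2M had 0 copies. A copy was called only for a transcript with at least 10 counts in all. No transcript of HLA-C or HLA-E reached that, so copies of these genes could not be found. In HLA-B only the retained-intron HLA-B-252 reached it. The 0 of these heavy chain genes thus does not show that other haplotypes held none of their reads.

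**Figure D1:**
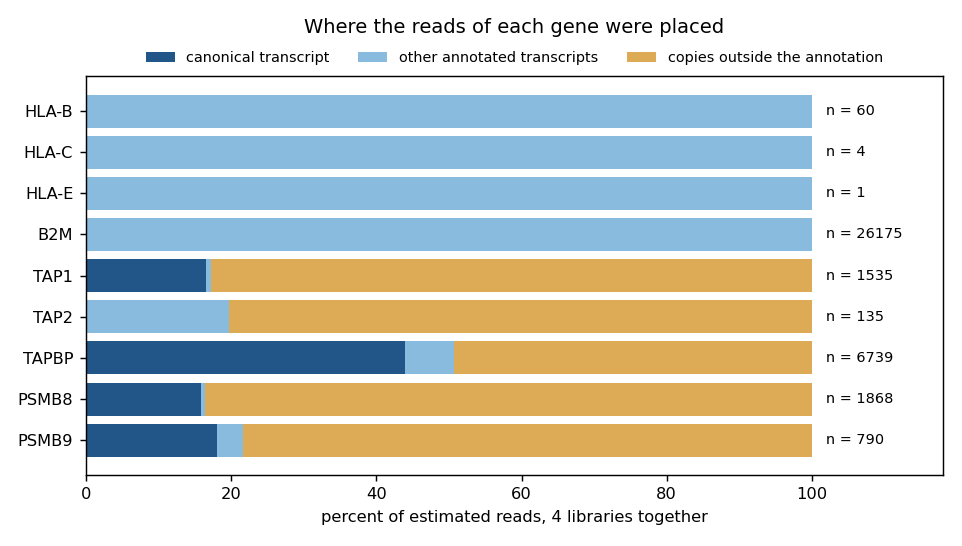
Share (percent) of each gene's estimated reads, summed over the 4 libraries, on its canonical transcript, on other annotated transcripts and on copies outside the annotation, with n the estimated reads in all. Copies take most reads of TAP1, TAP2, PSMB8 and PSMB9, and no bar of HLA-B, HLA-C, HLA-E, B2M or TAP2 has a visible canonical part. HLA-C and HLA-E had too few reads for a copy to be called.

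The heavy chains came first. HLA-B (ENSG00000234745.14, chromosome 6, 31353872 to 31367067, minus strand) encodes a classical heavy chain. Its level was 1.16 and 0.61 CPM in Doxy(-) against 1.71 and 1.04 CPM in Doxy(+), which rest on 15.1, 9.24, 21.9 and 13.6 reads. The groups overlapped. The log2FC was 0.64 (SE 0.48, edgeR adjusted p 0.413) and ran from 0.24 to 1.15 over the 12 other fits, none of which passed. Of these reads 94.6% lay on HLA-B-252, a transcript with a retained intron, and the canonical coding transcript HLA-B-249 was listed at 0 in all 4 libraries. Only 1 of the 6 coding transcripts annotated for HLA-B is among the identifiers in the tables.

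HLA-C (ENSG00000204525.18, chromosome 6, 31268749 to 31272130, minus strand), also a classical heavy chain gene, had 2.62, 0, 1.87 and 0 reads in Doxy(-) 1, Doxy(-) 2, Doxy(+) 1 and Doxy(+) 2. HLA-E (ENSG00000204592.9, chromosome 6, 30489509 to 30494194, plus strand) encodes a nonclassical chain that shows signal peptides of other class I chains to natural killer cells. It was listed at 0 reads in 3 libraries and at 1.44 reads in Doxy(+) 2. Their canonical coding transcripts HLA-C-201 and HLA-E-201 were listed at or next to 0 everywhere. A count of 0 allows up to 3 reads, which is 0.204 to 0.233 CPM by library, and this covers counting error only. With so few reads assigned, a difference was not detectable in either gene. For the 3 heavy chain genes the annotated identifiers therefore say little about the level of the gene, and any reads on identifiers of other haplotypes were not assigned to a gene here. Heavy chain genes are close in sequence, so reads of one can be divided with another, and how far this happened was not tested.

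B2M (ENSG00000166710.23, chromosome 15, 44711358 to 44718851, plus strand) lies outside the MHC region and encodes the light chain that every class I molecule needs. Its level was 453 and 416 CPM in Doxy(-) against 539 and 542 CPM in Doxy(+). The groups did not overlap. Group means were 435 ± 25.9 and 540 ± 2.53 CPM (SD, n = 2 each), a log2FC of 0.31 (SE 0.045, edgeR adjusted p 0.00581). B2M passed the test in all 12 other fits, with log2FC values from 0.25 to 0.37 and adjusted p-values of at most 0.0442.

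The canonical transcript B2M-211 is not among the identifiers in the tables, so the reads of B2M lay on other annotated forms. B2M-201 took 49.2% of them, B2M-202 took 30.4% and B2M-209 took 18.9%, all annotated as targets of nonsense-mediated decay. Scaled by library total, B2M-201 held 230 and 193 CPM in Doxy(-) against 263 and 274 CPM in Doxy(+). B2M-202 held 129 and 149 CPM in Doxy(-) against 154 and 158 CPM in Doxy(+), and B2M-209 held 86.6 and 69.4 CPM against 114 and 101 CPM. In each of these forms both Doxy(+) libraries lay above both Doxy(-) libraries. These labels say where reads were placed, and they do not show that B2M RNA was of these forms, since reads of a transcript missing from the quantifier's list can go to those that share its exons.

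On the per-length scale, B2M stood far above the other members. In TPM, a length-scaled abundance, B2M had 1379 and 1328 in Doxy(-) and 1697 and 1704 in Doxy(+). Without copies, TAPBP followed at 31.8 and 36.4 TPM in Doxy(-) and 23.7 and 24.3 TPM in Doxy(+). PSMB8 lay between 7.18 and 9.24 TPM, PSMB9 between 4.18 and 9.0, TAP2 between 2.29 and 3.41 and TAP1 between 2.20 and 2.84. The ranges of PSMB8 and PSMB9 overlapped, as did those of TAP2 and TAP1. This order depends on the copies. With them added, TAPBP had 61.8, 71.1, 45.5 and 48.5 TPM and PSMB8 had 55.9, 45.7, 51.4 and 43.5 TPM in the order Doxy(-) 1, Doxy(-) 2, Doxy(+) 1 and Doxy(+) 2, so that their ranges overlapped. PSMB9 then lay below PSMB8, between 20.9 and 37.2 TPM, TAP2 lay between 16.0 and 22.7 and TAP1 between 12.7 and 17.1, and each of these ranges overlapped the next. With copies, TAP2 rests on 25.6 to 39.2 reads per library and TAP1 on 317 to 445. Most of TAP2's own reads lay on TAP2-203, a retained-intron transcript of only 274 bases, and its canonical transcript was next to 0. The place of TAP2 in this order therefore does not give the level of its coding transcript.

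Other chains of the class I fold were compared from a list of 17 genes. Of these 9 were tested, 3 rose and 0 fell (median log2FC 0.29), beside 9.76% higher and 9.53% lower over all genes. The same shares stand beside each list below. Among those that rose were FCGRT and MR1. FCGRT encodes the heavy chain of the neonatal Fc receptor, which also pairs with beta-2 microglobulin. Its level was 14.27 and 14.97 CPM in Doxy(-) against 26.7 and 26.8 CPM in Doxy(+) (log2FC 0.87, SE 0.0862, edgeR adjusted p 0.00167). MR1, which presents vitamin B metabolites to mucosal T cells, stood at 37.6 and 36.0 CPM and at 44.5 and 45.5 CPM. Its log2FC was 0.29 (edgeR adjusted p 0.0205), but it missed the threshold in 7 of the 12 other fits, with adjusted p-values up to 0.196. At an unadjusted p under 0.05, 4 of the 9 were higher and 1 was lower. The stress ligand gene MICA, named after its values were seen, had too few reads to be tested. With its 2 copies it stood at 1.67 and 0.87 CPM in Doxy(-) and was listed at 0 in both Doxy(+) libraries (edgeR adjusted p 0.0154), so that 1 of the 10 chains tested in that fit fell.

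Neither transporter gene passed a test. TAP1 (ENSG00000168394.13, chromosome 6, 32845209 to 32853816, minus strand) held 5.12 and 4.70 CPM in Doxy(-) against 4.19 and 5.51 CPM in Doxy(+). The Doxy(-) values lay inside the range of the Doxy(+) values. Its log2FC was -0.01 (SE 0.216, edgeR adjusted p 0.974). With the 5 copies added the levels were 29.8, 25.3, 24.1 and 32.4 CPM in the order Doxy(-) 1, Doxy(-) 2, Doxy(+) 1 and Doxy(+) 2, and the log2FC was 0.04 (SE 0.155, edgeR adjusted p 0.891). TAP1 changed sign in 5 of the 12 other fits and passed in none.

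TAP2 (ENSG00000204267.19, chromosome 6, 32821833 to 32838739, minus strand) was not tested. Its level was 0.62 and 0.68 CPM in Doxy(-) against 0.39 and 0.30 CPM in Doxy(+), which rest on 8.07, 9.96, 4.96 and 3.65 reads. The groups did not overlap. These reads lay on 2 transcripts with a retained intron, and the canonical TAP2-201 was listed next to 0. With the 6 copies added, TAP2 stood at 2.66, 2.60, 2.66 and 1.90 CPM in the same order, the groups overlapped, and the log2FC was -0.21 (SE 0.293, edgeR adjusted p 0.675).

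TAPBP was the member that fell. TAPBP (ENSG00000231925.14, chromosome 6, 33299694 to 33314284, minus strand) encodes tapasin, the chaperone that bridges class I molecules and the transporter. Its level was 72.2 and 81.5 CPM in Doxy(-) against 48.1 and 49.5 CPM in Doxy(+). Both Doxy(+) libraries lay below both Doxy(-) libraries. The means were 76.8 ± 6.53 and 48.8 ± 1.03 CPM (SD, n = 2 each), a log2FC of -0.66 (SE 0.0734, edgeR adjusted p 0.00263). With its 3 copies added TAPBP held 139 and 158 CPM in Doxy(-) against 92.0 and 96.9 CPM in Doxy(+), with a log2FC of -0.65 (edgeR adjusted p 0.00195). All 12 other fits passed, from -0.74 to -0.49, with adjusted p-values up to 0.0481.

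The decrease of TAPBP sat on its main coding transcript. TAPBP-234, which took 86.9% of the gene's own reads, held 64.7 and 71.8 CPM in Doxy(-) against 39.6 and 42.2 CPM in Doxy(+). The retained-intron transcripts TAPBP-239 and TAPBP-235 did not separate the groups. TAPBP-239 had 3.45 and 4.96 CPM in Doxy(-) against 3.93 and 3.65 CPM in Doxy(+), and TAPBP-235 had 1.87 and 2.72 CPM against 2.40 and 3.67 CPM.

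**Figure D2:**
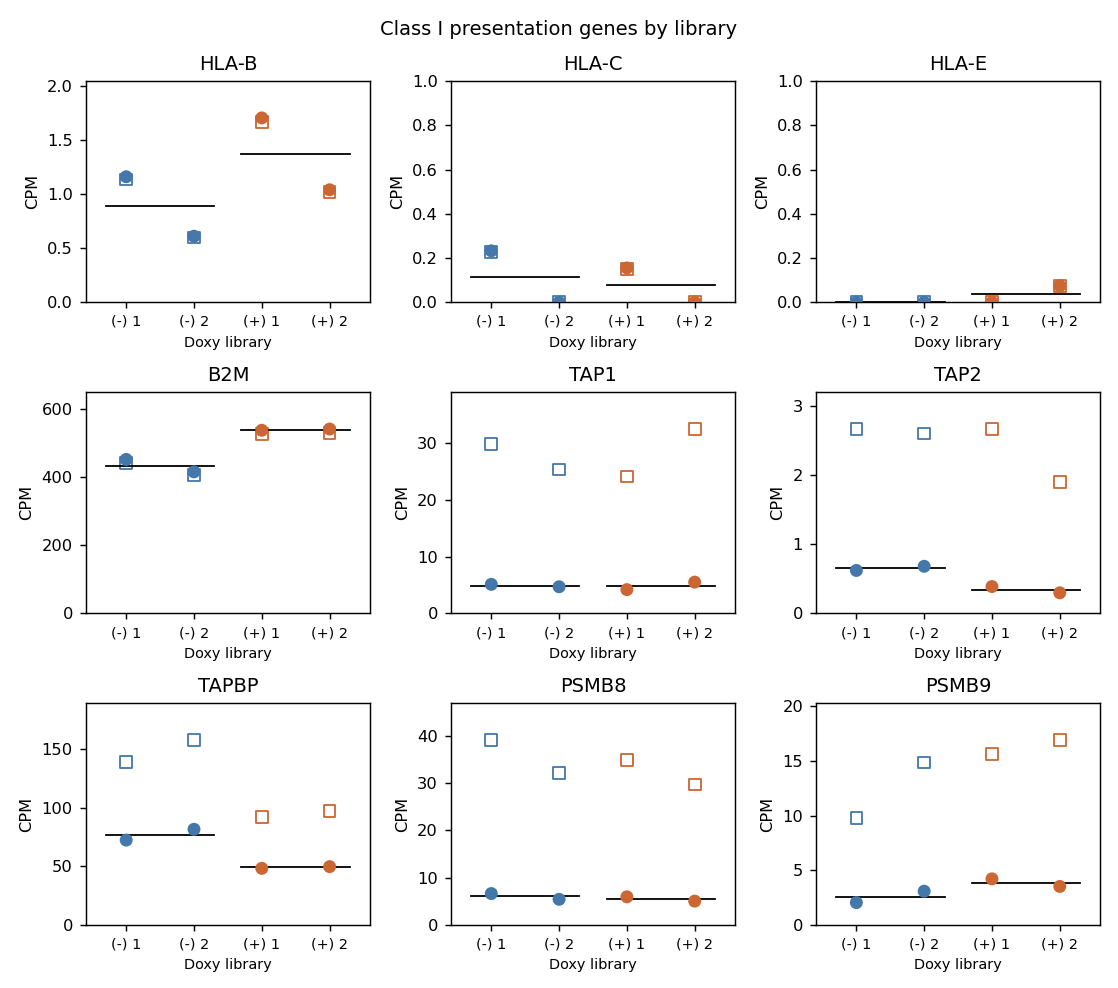
Level of each gene in each library (CPM, linear axis from 0), with filled circles for annotated transcripts alone, open squares with copies added, and horizontal lines at the mean of the 2 circles of a group. B2M is higher and TAPBP is lower in both Doxy(+) libraries, TAP1 and PSMB8 overlap between groups, and HLA-C and HLA-E lie at or near 0.

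Of 14 genes that load or trim class I peptides, all of them tested, 2 rose and 1 fell (median log2FC 0.04). CALR, the calreticulin gene, whose product stands beside tapasin in the loading complex, held 1809 and 1889 CPM in Doxy(-) against 2297 and 2358 CPM in Doxy(+). Its log2FC was 0.33 (SE 0.0317, edgeR adjusted p 0.00147), and it passed in all 12 other fits. CANX, the calnexin gene, which folds new heavy chains, changed by 0.19 (edgeR adjusted p 0.0238) and ERAP1, a trimming peptidase of the endoplasmic reticulum, by -0.20 (edgeR adjusted p 0.0322). CANX missed the threshold in 5 and ERAP1 in 7 of the 12 other fits, with adjusted p-values up to 0.251 and 0.572. Exons of ERAP1 overlap those of CAST, so reads there can be divided between both genes. The tapasin homologue TAPBPL had -0.27 (edgeR adjusted p 0.194) and PDIA3, the disulphide partner of tapasin, 0.07 (edgeR adjusted p 0.639). Both were named after their values were seen.

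The immunoproteasome members did not pass the test. PSMB8 (ENSG00000204264.12, chromosome 6, 32840717 to 32844679, minus strand) encodes the catalytic subunit that takes the place of PSMB5. Its level was 6.59 and 5.38 CPM in Doxy(-) against 5.90 and 4.99 CPM in Doxy(+). The groups overlapped, and the log2FC was -0.13 (SE 0.198, edgeR adjusted p 0.690). With its 12 copies added PSMB8 held 39.2 and 32.2 CPM in Doxy(-) against 35.0 and 29.7 CPM in Doxy(+), with a log2FC of -0.14 (SE 0.122, edgeR adjusted p 0.484).

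PSMB9 (ENSG00000240065.8, chromosome 6, 32844136 to 32859851, plus strand) encodes the subunit that takes the place of PSMB6. Its level was 2.02 and 3.06 CPM in Doxy(-) against 4.19 and 3.50 CPM in Doxy(+), from 25.8, 44.6, 53.5 and 47.4 reads. Both Doxy(+) libraries lay above both Doxy(-) libraries. The log2FC of 0.59 (SE 0.287, edgeR adjusted p 0.214) did not pass. With its 8 copies added PSMB9 held 9.80 and 14.9 CPM in Doxy(-) against 15.7 and 16.9 CPM in Doxy(+), and the log2FC was 0.40 (SE 0.195, edgeR adjusted p 0.22). It was positive in all 12 other fits, from 0.32 to 0.93, and passed in none. Exons of PSMB8 and PSMB9, on opposite strands, overlap, and whether the counting used the strand is not given in the sources used here.

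To set the immune subunits beside the constitutive ones, ratios were taken per library on the TPM scale. PSMB8 came to 2.86% and 2.53% of PSMB5 in Doxy(-) and to 2.72% and 2.35% in Doxy(+). PSMB9 came to 1.75% and 2.90% of PSMB6 in Doxy(-) and to 4.03% and 3.34% in Doxy(+). PSMB10, the third immune subunit, whose gene lies outside the MHC region, came to 24.1% and 21.5% of PSMB7 in Doxy(-) and to 25.9% and 27.2% in Doxy(+). The log2 ratios differed between groups by -0.09, 0.70 and 0.22 in that order. Leaving out 1 library moved the first from -0.20 (without Doxy(+) 1) to 0.02 (without Doxy(+) 2), the second from 0.34 (without Doxy(-) 1) to 1.07 (without Doxy(-) 2) and the third from 0.14 (without Doxy(-) 2) to 0.30 (without Doxy(-) 1). With copies added the first pair of genes gave 17.3%, 15.4%, 16.6% and 14.2% and the second 8.74%, 14.5%, 15.5% and 16.3% in the order Doxy(-) 1, Doxy(-) 2, Doxy(+) 1 and Doxy(+) 2, with differences of -0.09 and 0.50. The exact permutation p-values were 0.667, 0.333 and 0.333 (two-sided), and 0.333 is the smallest p that 2 against 2 libraries allow, so these ratios cannot pass a test at 0.05.

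The other proteasome genes were compared as 2 lists. Of 9 catalytic, activator and assembly genes 0 passed edgeR's test in either direction, with 1 higher and 3 lower at an unadjusted p under 0.05 (median log2FC -0.06), and 0 passed with DESeq2 or limma. PSME3 and PSME1, which encode activator subunits that cap the core particle, had -0.13 (edgeR adjusted p 0.0514) and -0.14 (edgeR adjusted p 0.065), and the assembly factor gene POMP had 0.15 (edgeR adjusted p 0.0931). PSME3 passed with RLE size factors and with copies added, and its sign turned in both limma fits. Of 10 other core particle genes 0 passed with edgeR, DESeq2 or limma, and 1 was lower at an unadjusted p under 0.05 with edgeR, PSMA6, which passed without the low-count filter. The smallest p-values belonged to PSMA6 (-0.16, edgeR adjusted p 0.0569), PSMB4 (0.08, edgeR adjusted p 0.193) and PSMB2 (-0.08, edgeR adjusted p 0.203).

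Of 24 regulators of class I transcription, all tested, 3 rose and 3 fell (median log2FC 0.00). NLRC5 passed both limits. This class I co-activator held 18.6 and 15.9 CPM in Doxy(-) against 29.1 and 42.2 CPM in Doxy(+). Both Doxy(+) libraries lay above both Doxy(-) libraries, with a wide gap between the Doxy(+) values. The means were 17.3 ± 1.91 and 35.7 ± 9.27 CPM (SD, n = 2 each) and the log2FC was 1.05 (SE 0.188, edgeR adjusted p 0.0134). The log2FC fell under the fold limit in 4 of the 12 other fits. It was 0.76 without Doxy(+) 2, 0.94 without Doxy(-) 2, and 0.944 and 0.999 in the limma fits with a pseudocount of 1 and 0.1. Its edgeR adjusted p rose to 0.0819 once unmatched identifiers were tested beside the genes, the highest of its 12 other fits (lowest 0.000162).

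STAT2, which carries interferon signals to the nucleus, also rose. It held 110 and 106 CPM in Doxy(-) against 166 and 164 CPM in Doxy(+) (log2FC 0.61, SE 0.0423, edgeR adjusted p 0.000518). The groups did not overlap, and STAT2 passed in all 12 other fits.

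The regulators that fell were JAK1, IRF1 and RELA. JAK1, a kinase of the interferon receptors, held 722 and 734 CPM in Doxy(-) against 588 and 602 CPM in Doxy(+) (log2FC -0.29, SE 0.0294, edgeR adjusted p 0.00182). It missed the threshold in both limma fits, with adjusted p-values of 0.059 and 0.0616. IRF1, named after its values were seen, encodes an interferon-induced activator of class I genes. Its level was 49.96 and 46.27 CPM in Doxy(-) against 31.8 and 30.5 CPM in Doxy(+). Its log2FC was -0.62 (SE 0.0676, edgeR adjusted p 0.00233), it passed in all 12 other fits, and its exons overlap those of IRF1-AS1. RELA, an NF-kappaB subunit that was also named after its values were seen, had -0.24 (edgeR adjusted p 0.0321). RELA missed the threshold in 7 of the 12 other fits, with DESeq2 and both limma fits among them, and its adjusted p-values there ran up to 0.189. The RFX complex genes RFX5, RFXAP and RFXANK, through which NLRC5 is held at class I promoters, had 0.02, 0.17 and 0.08 and did not pass.

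**Figure D3:**
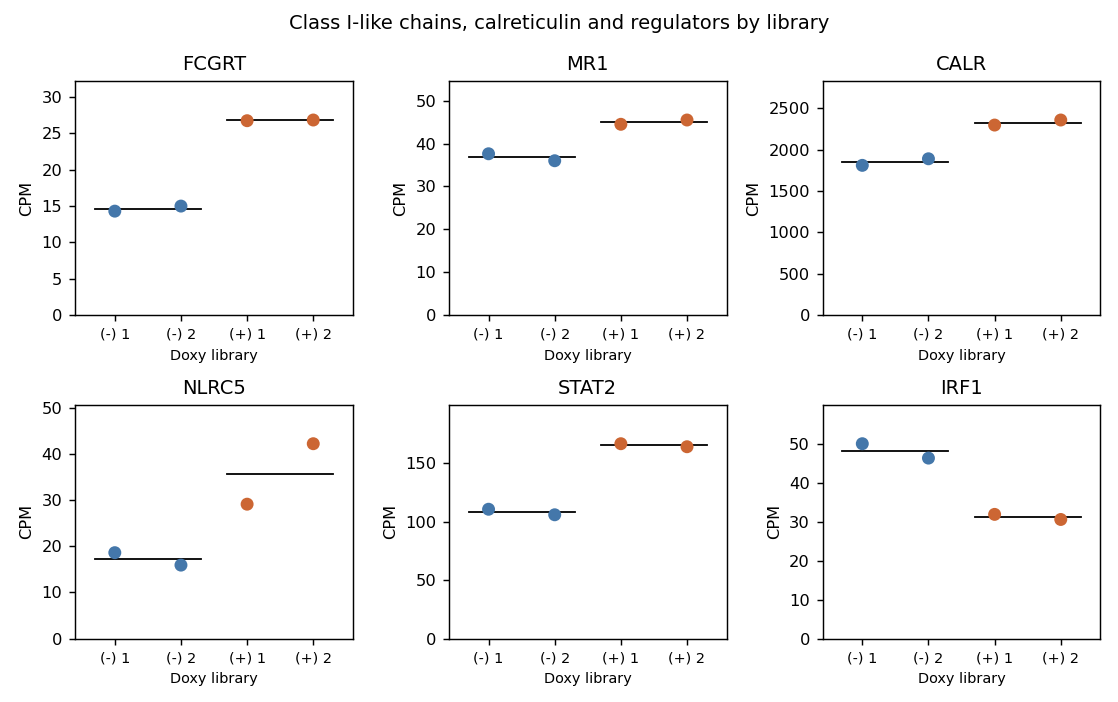
Level of 6 genes around the class I pathway in each library (CPM, linear axis from 0), with horizontal lines at group means of 2 libraries. FCGRT, MR1, CALR, NLRC5 and STAT2 are higher in both Doxy(+) libraries and IRF1 is lower in both, and NLRC5 has the widest spread within a group relative to its level.

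To place these genes beside promoter sequence, windows of 250 bases before each start site were searched on both strands in RefSeq's promoter table (GRCh38.p14). The E-box letters CACGTG, the palindrome that TFE3 and its relatives bind, were in 6.34% of the 35116 promoters and in 0 of the 8 members with an entry. The core of the interferon-stimulated response element, GAAA, any 2 bases and GAAA, was in 3.02% of all promoters and in B2M, TAP1, TAP2 and TAPBP. A match to the NF-kappaB consensus was in 5.21% of all promoters and in HLA-B, HLA-C, B2M, TAP1 and TAPBP. HLA-E had no entry. Stretches of 3 members are shown because B2M and TAPBP, which moved in opposite directions, and TAP1, which did not pass, hold matches to the same pair of motifs. Capitals mark the bases of the matches, and all stretches read in the direction of transcription.
B2M: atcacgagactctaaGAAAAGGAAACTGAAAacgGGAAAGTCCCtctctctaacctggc
TAPBP: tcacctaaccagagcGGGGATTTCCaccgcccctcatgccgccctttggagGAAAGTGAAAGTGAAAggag
TAP1: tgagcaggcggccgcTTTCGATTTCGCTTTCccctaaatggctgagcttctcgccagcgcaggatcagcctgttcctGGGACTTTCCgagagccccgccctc

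The B2M stretch is chr15:44711358-44711416 on the plus strand, from 159 to 101 bases before the RefSeq start. That of TAPBP is chr6:33314079-33314149 on the minus strand, from 71 to 1 bases before the start. That of TAP1 is chr6:32853752-32853853 on the minus strand, from 149 to 48 bases before the start, and it also lies inside the annotated span of PSMB9 on the plus strand. In the annotation used for counting, the spans of B2M and TAPBP hold their own stretches, and that of TAP1 holds part of its own. The distances given here count from RefSeq's start sites only. In B2M and TAPBP the response element cores read on the gene's strand, in TAP1 on the opposite strand. In B2M they stand farther from the start than the NF-kappaB match, as in TAP1, and in TAPBP they stand nearer. These matches describe letters only, and binding was not measured here.

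Genes that act after assembly were compared from a list of 15 that take part in class I turnover, all tested, of which 3 rose and 1 fell (median log2FC 0.03). The membrane ubiquitin ligase gene MARCHF4 held 5.28 and 4.35 CPM in Doxy(-) against 2.10 and 2.31 CPM in Doxy(+). Its log2FC of -1.12 (SE 0.235, edgeR adjusted p 0.0230) was past both limits, and it missed the threshold in 7 of the 12 other fits, with adjusted p-values up to 0.277. TMEM127 had 0.20 (edgeR adjusted p 0.0370) and missed it in 10, and MARCHF9, named after its values were seen, had 0.56 (edgeR adjusted p 0.0498) and missed it in 11. With limma 0 of the 15 passed, while 5 were higher and 0 lower at an unadjusted p under 0.05, and with DESeq2 1 was higher and 0 were lower.

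Genes of class II presentation served as a contrast within antigen presentation. Of 13 listed 6 were tested, 2 rose and 0 fell (median log2FC 0.35). The class II chain genes HLA-DRA, HLA-DPA1, HLA-DPB1 and HLA-DQB1 were listed at 0 in all 4 libraries, and the class II transactivator gene CIITA lay between 0.68 and 1.55 CPM, all of them named after their values were seen. Those that rose were the lysosomal genes IFI30, a thiol reductase, from 142 and 131 CPM to 415 and 405 CPM (log2FC 1.59, SE 0.0477, edgeR adjusted p 4.47e-05), and CTSS, a cysteine protease, from 96.3 and 93.4 CPM to 132 and 128 CPM (log2FC 0.46, SE 0.0448, edgeR adjusted p 0.00159). CD74, the invariant chain gene, had 0.12 (edgeR adjusted p 0.115).

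**Figure D4:**
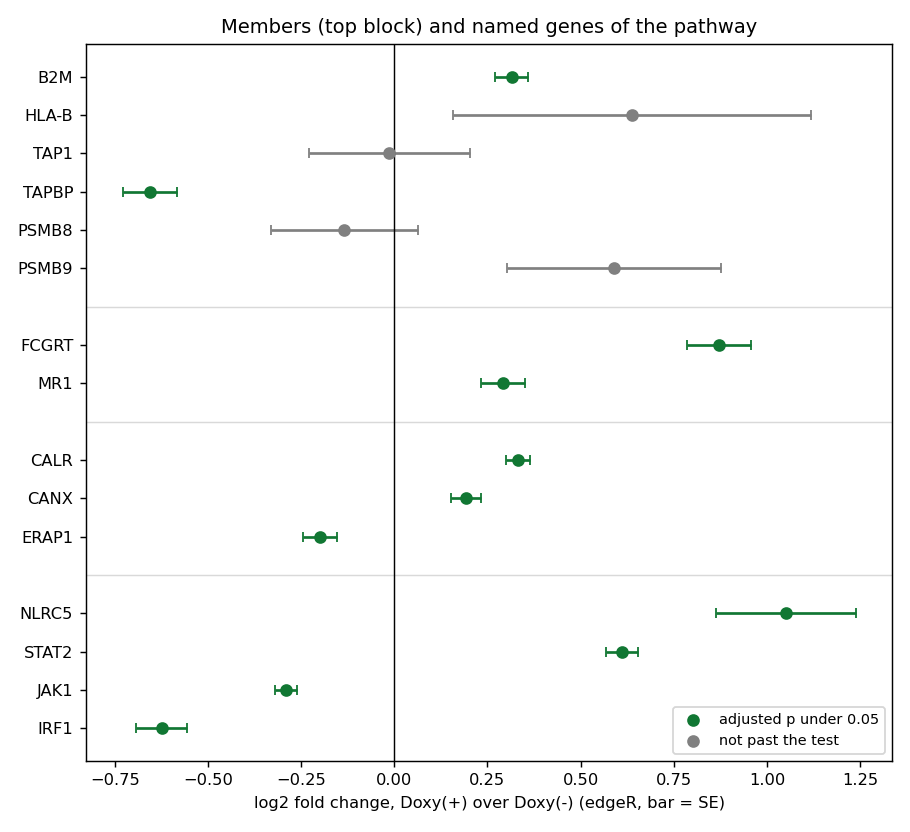
log2 fold change (log2FC) of Doxy(+) over Doxy(-) with its SE (edgeR, n = 2 libraries per group) for the 6 tested members and, below them, class I chains, loading genes and regulators, with green for an adjusted p under 0.05. B2M at 0.31 and TAPBP at -0.66 are the members that passed, and HLA-B and PSMB9 have wide errors.

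Over the 7 pathway lists together, 87 of 103 genes were tested, 13 rose and 5 fell, and the median log2FC was 0.02. Over all genes tested 9.76% were higher and 9.53% were lower, and these shares stand beside the counts of each list and of the neighbours. No set test was run. Neighbours of the members were read the same way. On chromosome 6 from the start of HLA-F to the end of TAPBP (29722775 to 33314284), 63 other genes were tested, 5 rose and 1 fell, and their median was -0.03. NEU1, a lysosomal sialidase gene, had the smallest p, with 28.5 and 27.3 CPM in Doxy(-) and 68.3 and 72.0 CPM in Doxy(+) (log2FC 1.33, edgeR adjusted p 0.000173). ATF6B, which encodes a transcription factor of the endoplasmic reticulum, had 0.94 (edgeR adjusted p 0.0017). Among those named after their values were seen, the heavy chain pseudogene HLA-K had 1.13 (edgeR adjusted p 0.00502), AGPAT1 had 0.59 (edgeR adjusted p 0.0386) and CLIC1 had -0.33 (edgeR adjusted p 0.00879). AGPAT1 missed the threshold in 6 and CLIC1 in 2 of the 12 other fits, with adjusted p-values up to 0.143 and 0.0761, and exons of CLIC1 overlap those of DDAH2 and MSH5. HLA-K held 7.37 and 7.49 CPM in Doxy(-) against 18.2 and 14.3 CPM in Doxy(+). Its reads can be shared with other heavy chain genes. The levels of these neighbours leave out copies. With copies added NEU1 held 169 and 160 CPM in Doxy(-) against 405 and 419 CPM in Doxy(+) (log2FC 1.33). ATF6B then held 31.9 and 30.0 CPM against 59.0 and 55.3 CPM (0.89). CLIC1 held 550 and 548 CPM against 425 and 446 CPM (-0.33).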

How the data were processed

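RNA of 4 HK-2 libraries, 2 Doxy(-) and 2 Doxy(+), was measured on polyadenylated transcripts with a stranded kit. The study's methods name Trim Galore 0.6.6 with cutadapt 2.5, STAR 2.7.9a and RSEM on hg38, but the deposited tables have the columns of kallisto. They list 180253 Ensembl transcript identifiers. Which version and Ensembl release the quantifier used, and whether it used the strand, are not given in the sources used here. The deposited estimated counts were not normalized by the authors and divide shared reads between transcripts, so they need not be whole. The deposited TPM values are scaled for length and to the same total in each library.

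Each identifier was looked up in GENCODE release 44 (hg38) (150691 of 180253, 83.6%), and estimated counts were summed per gene and rounded. The 29562 without a match entered neither library sizes nor tests. Of them, 3034 were copies (same length and same 4 counts as a transcript of 1 gene, at least 10 counts in all). Genes were tested with edgeR 4.0.16 (glmQLFit, glmQLFTest, TMM scaling, filterByExpr, the group as the only term) in R 4.3.3, with Benjamini-Hochberg adjustment over 13569 genes. CPM values use the TMM-scaled totals of gene counts, which before scaling were 12654233 to 15012743 per library. The standard error is that implied by the F statistic. Fold changes are Doxy(+) over Doxy(-). On simulated data of 13381 genes for this comparison, 79% of 100 genes changed 1.5-fold and 94% of 100 changed 2-fold were recovered. There were 24 false calls among 13181 unchanged genes. The changed genes were drawn only from those with a mean CPM above those of HLA-B, TAP1 and PSMB9, so these rates do not cover these members.

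The 12 other fits used RLE size factors, the table without a low-count filter, DESeq2 1.42.0, limma 3.58.1 on log2(TPM + 1) and on log2(TPM + 0.1) at a mean TPM of at least 1, copies added, unmatched identifiers tested beside the genes, the library number as a block, and 4 fits that each left out a library. In the last, the lone library of a group is assumed to vary like the other group. An adjusted p under 0.01 was also tried. Subunit ratios used gene sums of TPM and an exact permutation test.

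The members and lists were chosen with earlier results of these data known. Genes named are the 9 members, TFE3, PRCC, GPNMB and RRAGD, the 3 with the smallest p in each of 7 pathway lists and in the MHC region, and any listed gene past both limits. The counts of a list cover all its tested genes, and the results of some of the genes this rule names are not reported here. Others are said to be named after their values were seen, apart from the marker, RFX and constitutive proteasome genes. Promoter sequences are from RefSeq on GRCh38.p14, and matches of the NF-kappaB consensus are given by name.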

Additional observations from a re-analysis of the deposited data

How the results depend on the processing

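Among the 9 class I presentation genes, 1 higher, 1 lower and 0 past both limits was the result in every fit run and at an adjusted p under 0.01. Over all genes the counts of 1325 higher and 1293 lower became 776 and 779 with DESeq2, 598 and 306 with limma on log2(TPM + 1), 590 and 299 with limma on log2(TPM + 0.1), 644 and 616 with unmatched identifiers beside the genes, and 621 and 554 at an adjusted p under 0.01. Leaving out a library gave 647 to 1233 higher and 565 to 1308 lower, with the lowest counts without Doxy(+) 1 (647 and 565) and Doxy(+) 2 (686 and 642). In the pathway lists, 5 lower genes became 2 with DESeq2 and 8 with copies added, and leaving out a library gave 8 to 12 higher (8 without Doxy(+) 1) and 2 to 7 lower (2 without Doxy(-) 1, Doxy(+) 1 or Doxy(+) 2). In the MHC region, 1 lower gene became 4 with copies added and 0 to 4 without a library (0 without Doxy(+) 1, 4 without Doxy(-) 2). The cause was not tested.

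Signs turned only for values that did not pass. The log2 fold change of TAP1 was 0.0094 and 0.0101 in the limma fits with a pseudocount of 1 and 0.1, 0.0394 with copies added and -0.226 to 0.167 when a library was left out. Leaving out a library gave -0.277 to 0.014 in PSMB8 (positive without Doxy(-) 1), -0.0988 to 0.00895 in PSMB5 (without Doxy(-) 1), -0.0911 to 0.13 in PSMB10 (negative without Doxy(-) 2 and without Doxy(+) 2) and -0.0293 to 0.304 in PRCC (negative without Doxy(+) 2). In the limma fits PRCC was -0.15 and -0.153 and PSME3 was 0.0466 and 0.0469. Among single values of named genes over the alternatives, 452 kept direction and side of the threshold, 69 no longer passed, 5 came to pass and 14 turned.

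Libraries with the same number deviated from their group means with a correlation of -0.0147, so the numbers were not used as pairs. With the replicate block there were 1282 higher and 1261 lower genes, 11 higher and 6 lower in the pathway lists, and 2 lower in the MHC region against 1. PSMA6 came to pass with it and TMEM127 and MARCHF9 no longer passed.

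HLA-B, HLA-C, HLA-E and TAP2 rest on 60 estimated reads or fewer each without copies, and the parts of depth and of read placement in this were not tested. With 2 libraries a group, an SD is itself imprecise.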

Other observations

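Some genes around the class I pathway changed with how copies were handled. With copies added, IFNGR2, which encodes a chain of the interferon-gamma receptor, held 39.2 and 35.6 CPM in Doxy(-) against 30.3 and 26.8 CPM in Doxy(+), with a log2 fold change (log2FC) of -0.39 (edgeR adjusted p 0.0312, against 0.0629 without its 5 copies). Both Doxy(+) libraries lay below both Doxy(-) libraries on either scale. HLA-DMB, a class II peptide exchange gene with 4 copies, held 11.5 and 9.33 CPM in Doxy(-) against 8.51 and 9.99 CPM in Doxy(+) and did not pass with or without them (edgeR adjusted p 0.531 and 0.592). MICB, a stress ligand gene of the class I fold with 1 copy, likewise did not pass (log2FC -0.09 with copies and -0.03 without). These genes too were named after their values were seen, and IFNGR2 passed in 1 of its 12 other fits, the one with copies added, with adjusted p-values up to 0.327. Exons of IFNGR2 overlap those of TMEM50B.

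Among the interferon receptor and kinase genes that did not pass, values lay on both sides of 0. JAK2 had a log2FC of 0.70 (SE 0.269, edgeR adjusted p 0.129) at 1.78 and 2.45 CPM in Doxy(-) and 3.50 and 3.43 CPM in Doxy(+). IRF9, which joins STAT2 in the complex that type I interferon activates, had 0.37 (SE 0.142, edgeR adjusted p 0.129), IFNAR2 had -0.24 (edgeR adjusted p 0.0679) and IFNGR1 had 0.03 (edgeR adjusted p 0.891). These genes were named after their values were seen.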
